A study of Mus musculus with 6 samples.

Results

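The 10 genes described here encode plasma proteins of the acute phase response. They are the serum amyloid A genes Saa1, Saa2, Saa3 and Saa4, haptoglobin (Hp), hemopexin (Hpx), the alpha-1-acid glycoproteins Orm1 and Orm2, lipocalin 2 (Lcn2) and the inter-alpha-trypsin inhibitor heavy chain Itih4. They were chosen by symbol, and each symbol matched 1 of the 43346 Ensembl gene IDs in the count tables. RNA-seq read counts came from livers of C57BL6 mice aged 3 months. The DKO group held 3 libraries from mice with a double knockout of β-catenin and γ-catenin restricted to hepatocytes, and the Control group held 3 libraries labelled only as Control. The driver of the deletion is not given in the sources used here. Liver cells other than hepatocytes would keep both catenins if the deletion is restricted as stated, which was not tested. Whether the libraries are from different mice is not stated, and each p-value therefore describes the spread among these libraries, which may be technical.

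In the acute phase response, infection or injury raises cytokines such as interleukin 6 and interleukin 1, and hepatocytes answer by changing which plasma proteins they secrete. Interleukin 6 acts through STAT3, and interleukin 1 through NF-κB, with C/EBP factors at many of the target promoters. In mice Saa1 and Saa2 are among the most inducible of these liver genes and are nearly silent at rest, whereas Saa4 is made constitutively and Hp, Hpx, Orm1 and Itih4 are abundant in the healthy liver too. Saa3 is known mainly from macrophages and fat tissue, and Lcn2 from neutrophils as well as from inflamed hepatocytes.

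The 2 groups differed in library composition. Reads assigned to genes numbered 309731, 525037 and 1491237 in DKO replicates 1, 2 and 3, which was 2.68% to 4.74% of all reads, against 12320487 to 15869639 in Control, or 33.3% to 34.9%. The hepatocyte marker list, 19 genes, summed to between 2841 and 60881 CPM (counts per 1000000 gene reads) in DKO, against 129187 to 144582 CPM in Control. Olfactory and vomeronasal receptor genes summed to between 895 and 1895 CPM in DKO, against 9.32 to 14.4 CPM in Control. Genes of the mitochondrial genome took 6.27%, 14.4% and 62.7% of gene reads in DKO replicates 1, 2 and 3, against 6.34% to 6.57% in Control. Those reads are part of the gene reads, and so lower every level scaled by gene reads alone in DKO replicate 3. Ctnnb1, which encodes β-catenin, had 0, 52 and 65 reads in DKO and 2945, 2896 and 2650 in Control (log2 fold change -2.26, SE 1.30, adjusted p = 0.171 in edgeR's quasi-likelihood test). Jup, which encodes γ-catenin, had 6, 1 and 11 reads in DKO and 339, 270 and 196 in Control (log2 fold change -1.68, SE 0.72, adjusted p = 0.0847). The labels were taken as given, and every difference below is one between libraries as labelled. Fewer hepatocytes, less RNA per hepatocyte and a technical difference between the libraries cannot be told apart in these bulk data.

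Saa1 and Saa2 stood apart from the other abundant members: Saa2 was higher in every DKO library and Saa1 in DKO replicates 2 and 3, while Hp, Hpx, Orm1, Itih4 and Saa4 were lower in every DKO library. Levels are given in CPM scaled by edgeR's TMM factors unless stated. Of the 10 members, all of which passed the filter on low counts, edgeR called 2 higher (Saa2 and Lcn2) and 1 lower (Saa3) in DKO at an adjusted p under 0.05. Over all 15561 genes tested, 44.1% were called, 31.3% higher and 12.8% lower, so the members' count is no larger than that background. The TMM-scaled levels of 7 members did not overlap between the groups, against 70.4% of all genes tested. The median log2 fold change of the 10 was -1.95, also with Saa3 set at the bound given below, beside -0.08 over all genes tested. Together the members took 0.129%, 0.550% and 0.338% of gene reads in DKO replicates 1, 2 and 3 (Wilson 95% intervals 0.117 to 0.143, 0.531 to 0.571 and 0.329 to 0.348), against 1.04%, 1.03% and 1.02% in Control. Intervals cover counting error only, since the reads carry no molecular identifiers.

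**Figure D1:**
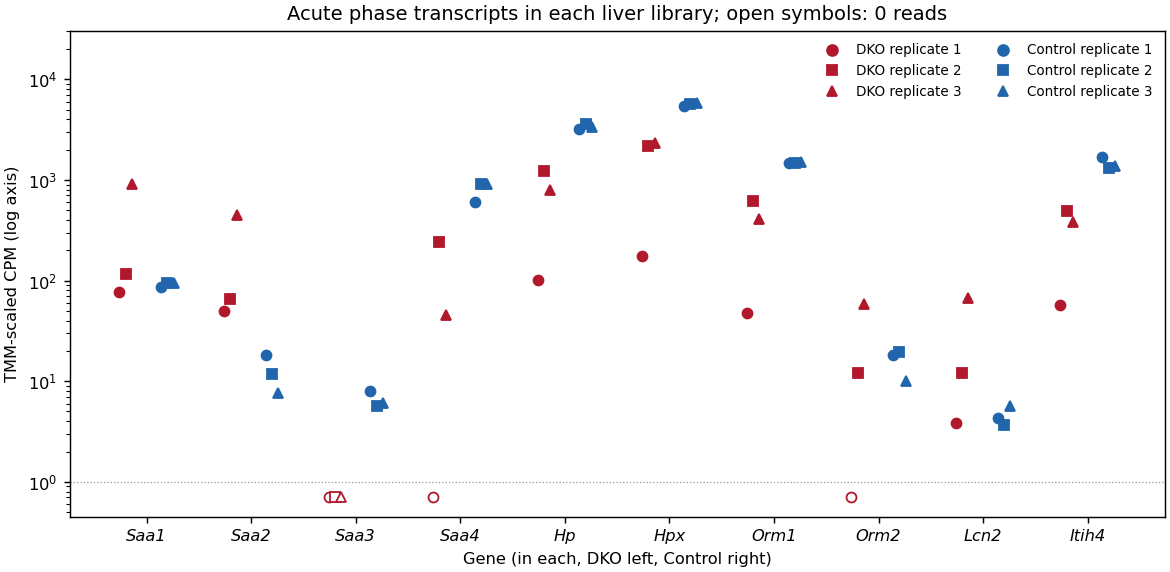
TMM-scaled CPM (log axis) of the 10 genes in each library, with the DKO libraries left and the Control libraries right within each gene, 1 symbol per library; open symbols mark 0 reads and are drawn below the dotted line at 1 CPM. Saa2 lies higher in all 3 DKO libraries, Saa3 is at 0 in all 3, and Hp, Hpx, Orm1, Itih4 and Saa4 lie lower in all 3.

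Saa1 and Saa2 encode the inducible serum amyloid A proteins, which ride on high-density lipoprotein. Saa1 (ENSMUSG00000074115, chromosome 7, 46740497 to 46742980, minus strand, mm10) had 61, 67 and 833 reads in DKO replicates 1, 2 and 3, against 1135, 1034 and 920 in Control. These gave 77.7, 115 and 901 CPM in DKO, against 86.6, 94.2 and 95.6 CPM in Control. DKO replicate 3 was far above all other libraries, replicate 2 was above Control, and replicate 1 was below Control, so that the groups overlapped. The log2 fold change was 1.99 (SE 1.11, adjusted p = 0.163), which did not pass. It was 0.38 without DKO replicate 3 (adjusted p = 0.555), and it passed without DKO replicate 1 (2.31, adjusted p = 0.0355). Scaled by gene reads alone, Saa1 was at 197, 128 and 559 CPM in DKO and at 71.5, 74.1 and 74.7 CPM in Control. The groups did not overlap on that scale, for which the share of all genes with such a gap was not counted. In edgeR without scaling beyond library size, the median gene stood at a log2 fold change of 0.49. Saa1 did not pass there (2.06, adjusted p = 0.0778).

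Saa2 (ENSMUSG00000057465, chromosome 7, 46751790 to 46754313, plus strand) had 39, 38 and 417 reads in DKO, against 240, 129 and 74 in Control. Its level was 49.6, 65.4 and 451 CPM in DKO, against 18.3, 11.8 and 7.69 CPM in Control, and all 3 DKO libraries were above all 3 Control libraries. That pattern held for 34.0% of all genes tested. The mean was 189 ± 227 CPM in DKO and 12.6 ± 5.36 CPM in Control (SD, n = 3 each). Saa2 rose by 3.91 on the log2 scale (SE 1.05; adjusted p = 0.0139 in edgeR). Without DKO replicate 3 the log2 fold change was 2.51 and still passed (adjusted p = 0.0101), and without Control replicate 1, 2 or 3 it did not (adjusted p = 0.0543, 0.0740 and 0.0842).

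The balance between these neighbouring genes also differed. Saa2 made up 39.0% of the Saa1 and Saa2 reads in DKO replicate 1, 36.2% in DKO replicate 2 and 33.4% in DKO replicate 3, with exact 95% intervals of 29.4 to 49.3, 27.0 to 46.1 and 30.7 to 36.1. In Control it made up 17.5% (15.5 to 19.6), 11.1% (9.34 to 13.0) and 7.44% (5.89 to 9.26). The groups did not overlap in this share, which needs no scaling between libraries. A two-sided exact test of 3 against 3 libraries cannot go below p = 0.1, and none was run, because the members were chosen with earlier results known.

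**Figure D2:**
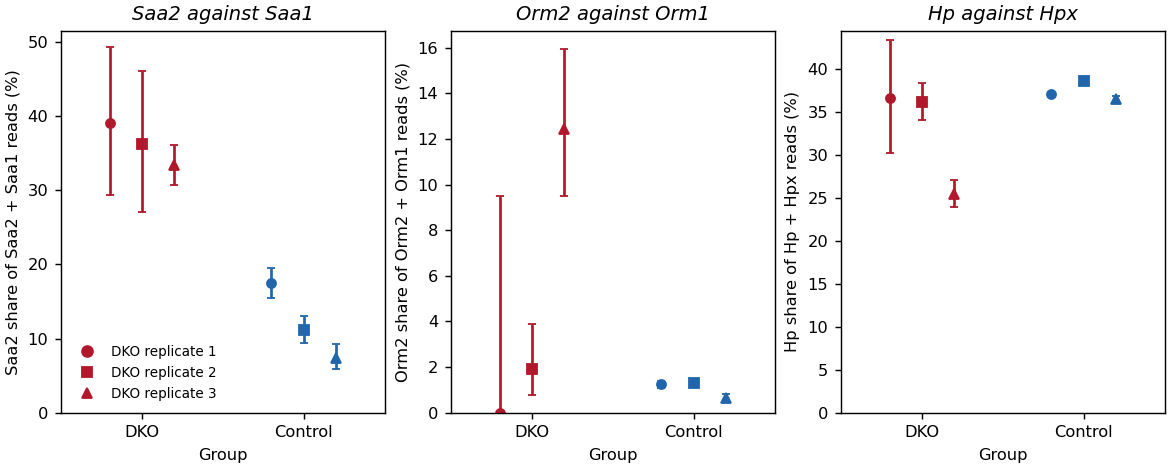
Share of reads (%) taken by the first gene of 3 pairs in each library, with exact 95% binomial intervals, DKO left and Control right in each panel. The Saa2 share lies at 33.4% to 39.0% in DKO and 7.44% to 17.5% in Control, the Orm2 share stands out in DKO replicate 3, and the Hp share is lowest in DKO replicate 3.

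The share matters because Saa1 and Saa2 are close copies, and HTSeq does not count a read with several equally good alignments. Their coding sequences, 366 bases each, differ at 18 bases and are 95.1% identical, with a longest shared run of 73 bases. The coding stretches with the most differences (bases 70 to 189) and with the fewest (bases 246 to 365) are shown 5′ to 3′ from GENCODE M21 transcripts, to let a reader see where a read can and cannot tell the genes apart. Capitals mark the bases that differ between the genes.
Saa1, bases 70 to 189: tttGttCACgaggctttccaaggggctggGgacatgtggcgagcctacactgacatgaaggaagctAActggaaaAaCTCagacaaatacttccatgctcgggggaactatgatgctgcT
Saa2, bases 70 to 189: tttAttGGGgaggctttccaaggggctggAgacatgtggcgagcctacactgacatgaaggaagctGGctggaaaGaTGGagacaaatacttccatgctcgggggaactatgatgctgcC
Saa1, bases 246 to 365: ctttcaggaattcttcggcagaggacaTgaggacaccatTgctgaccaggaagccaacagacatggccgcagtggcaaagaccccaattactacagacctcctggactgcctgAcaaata
Saa2, bases 246 to 365: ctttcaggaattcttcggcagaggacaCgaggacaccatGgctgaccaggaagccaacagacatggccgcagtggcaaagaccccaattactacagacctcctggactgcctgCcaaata
The first pair differs at 12 of 120 bases and the second at 3 of 120.

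The read length is not given in the sources used here, so windows of several lengths were looked up in all annotated transcripts. Of the 50-base windows of their protein-coding transcripts, 85.2% of those of Saa1 and 88.2% of those of Saa2 occurred in no other gene. The share was 95.3% and 95.5% at 75 bases and 100% for both at 100 bases. Each gene also has an annotated transcript with retained introns. With these included, 68.5% and 70.03% of 50-base windows were unique to Saa1 and Saa2, and 91.0% and 91.4% of 100-base windows. Saa3 and Saa4 shared fewer: 95.8% and 98.7% of their coding 50-base windows were unique. Reads that aligned to more than 1 place made up 9.90% to 28.6% of all reads in DKO and 18.1% to 20.2% in Control. Per read assigned to a gene, they numbered 3.15 to 6.04 in DKO, against 0.517 to 0.608 in Control, and how many came from Saa genes was not tested. No exon of a member overlapped an exon of another counted gene in that annotation.

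**Figure D3:**
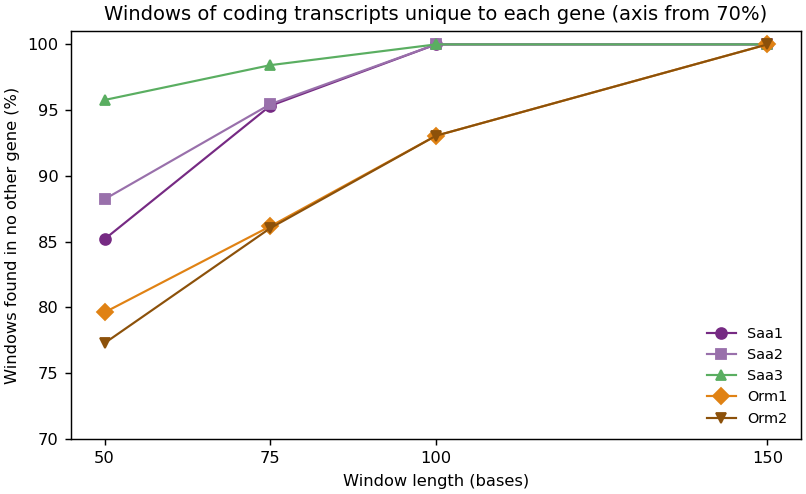
Share of windows (%, axis from 70%) of each gene's protein-coding transcripts that occur in no other annotated gene, by window length in bases, for Saa1, Saa2, Saa3, Orm1 and Orm2. Saa1 and Saa2 reach 100% at 100 bases, while Orm1 and Orm2 stand at 93.0% there and reach 100% at 150 bases.

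The upstream sequences of Saa1 and Saa2 are as alike as their coding parts, and are shown beside that of Saa3. Whether they bear on any difference in level was not tested. The stretch from 200 to 51 bases before each RefSeq start (GRCm38.p6, the assembly of mm10) was 96.0% identical between Saa1 and Saa2 and 50.3% between Saa1 and Saa3. Capitals mark matches to TTNNGNAAT, a C/EBP motif searched on both strands.
Saa1, chr7:46743031-46743180, minus strand: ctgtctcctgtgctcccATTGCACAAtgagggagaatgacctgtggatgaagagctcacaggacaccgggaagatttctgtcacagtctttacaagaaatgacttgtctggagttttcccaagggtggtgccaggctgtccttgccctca
Saa2, chr7:46751633-46751782, plus strand: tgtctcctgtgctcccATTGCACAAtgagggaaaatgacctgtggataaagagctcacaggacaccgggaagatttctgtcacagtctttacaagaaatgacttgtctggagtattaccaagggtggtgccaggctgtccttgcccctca
Saa3, chr7:46715727-46715876, minus strand: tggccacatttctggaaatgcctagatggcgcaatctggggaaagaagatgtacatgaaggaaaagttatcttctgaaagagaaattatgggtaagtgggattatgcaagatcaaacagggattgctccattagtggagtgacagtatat
The match begins at position -183 from the start of Saa1 and at -184 from that of Saa2. Of 32851 promoters, 10.2% held this motif within 250 bases. Among the 8 members with a RefSeq promoter, all but Hp and Orm1, Orm2 was the only other with a match. The Lcn2 window lay wholly inside its GENCODE gene. None held the NF-κB string searched (GGG, any 2 bases, then TTTCC), which 1.41% of promoters held. Other forms of that motif were not searched, so the lack of a match does not speak to NF-κB sites. The STAT motif TTCNNNGAA, held by 7.02% of promoters, occurred upstream of Itih4 alone among the 8 members. These matches describe letters in a window and are not sites of binding.

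Saa3 and Saa4 lie beside Saa1 on chromosome 7 and did not share its pattern. Saa3 (ENSMUSG00000040026, 46711998 to 46715700, minus strand) had no read in any DKO library, against 105, 62 and 59 reads in Control. Saa3 fell at least 5.04-fold on the TMM scale, against a floor of 3 counts over the DKO group (adjusted p = 0.0101). Its liver transcripts would have given only 1.81 reads over the 3 DKO libraries at the Control proportion, estimated from abundant liver genes. The call and the low amount of liver RNA cannot be told apart, and on a scale set by abundant liver genes the call ended (adjusted p = 0.101). Beside Saa3, the 14 macrophage and Kupffer cell markers had 1 called higher (Itgam) and 2 lower (C1qa and C1qc). Of these C1qc, a complement subunit made by macrophages, was at 0 in every DKO library, against 364, 243 and 228 reads in Control (at least 18.7-fold lower). Background alone gave an expected 12.1 C1qc reads over the DKO group. C1qb, on the same list, had 18, 27 and 14 reads in DKO, against 428, 273 and 260 in Control. Its log2 fold change was -0.019 (adjusted p = 0.980 in edgeR). Scaled by gene reads alone, without TMM, the summed level of the 14 markers was 151 to 261 CPM in DKO, against 283 to 387 CPM in Control. The part of these markers in the Saa3 result was not tested.

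Saa4, the constitutive member (ENSMUSG00000040017, 46727998 to 46732603, minus strand), had 0, 140 and 42 reads in DKO, against 7927, 9912 and 8676 in Control. Its level was 0, 241 and 45.4 CPM in DKO, against 605, 903 and 902 CPM in Control. No DKO library reached a Control library, a pattern that 36.4% of all genes tested showed. A count of 0 in DKO replicate 1 allows up to 3 reads, and 8.004 were expected there from Control proportion and background together. The log2 fold change was -3.08 (SE 1.63, adjusted p = 0.145), which did not pass. It passed without DKO replicate 1 (-2.62, adjusted p = 0.0332) and without DKO replicate 2 (-5.29, adjusted p = 0.0366). DESeq2 called it lower (-3.41, adjusted p = 0.0285), as did edgeR with no filter beyond 1 count (adjusted p = 0.00681). Per 1000 Alb reads of the same library, Saa4 stood at 0, 8.66 and 8.74 in DKO, against 6.52, 10.4 and 10.7 in Control. Alb encodes albumin, the main secreted hepatocyte protein. In the DKO libraries with Saa4 reads, Saa4 thus stood within the Control range when set against Alb.

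The scavengers of haemoglobin and haem were the most abundant members in Control. Hpx, which binds free haem (ENSMUSG00000030895, chromosome 7, 105591613 to 105600137, minus strand), had 137, 1268 and 2162 reads in DKO, against 71441, 62271 and 55908 in Control. Hp, which binds free haemoglobin (ENSMUSG00000031722, chromosome 8, 109575128 to 109579172, minus strand), had 79, 718 and 739 reads in DKO, against 42039, 39079 and 32099 in Control. Both were lower in all DKO libraries in CPM, a pattern that 36.4% of all genes tested showed. Hpx averaged 1565 ± 1207 CPM in DKO and 5646 ± 180 CPM in Control (SD, n = 3 each; log2 fold change -1.85, SE 1.38, adjusted p = 0.280). Hp averaged 712 ± 572 CPM in DKO and 3369 ± 179 CPM in Control (log2 fold change -2.24, SE 1.33, adjusted p = 0.182). Neither passed in edgeR. DESeq2 called both lower, with adjusted p of 0.0120 for Hpx and 0.00121 for Hp, where it called 30.7% of genes lower and 35.3% higher. Hp took 36.6%, 36.2% and 25.5% of the Hp and Hpx reads in DKO replicates 1, 2 and 3, against 37.0%, 38.6% and 36.5% in Control. Replicates 1 and 2 were thus near Control in this balance, with exact intervals of 30.1 to 43.4 and 34.0 to 38.3, and replicate 3 was below it (23.9 to 27.1).

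Orm1 and Orm2 encode alpha-1-acid glycoproteins, plasma carriers of lipophilic compounds. Orm1 (ENSMUSG00000039196, chromosome 4, 63344560 to 63348163, plus strand) had 37, 362 and 380 reads in DKO, against 19238, 16168 and 14512 in Control. Its level was 360 ± 291 CPM in DKO and 1483 ± 21.5 CPM in Control (SD, n = 3 each; log2 fold change -2.04, SE 1.24, adjusted p = 0.191). Every DKO library was below every Control library, as for 36.4% of all genes tested. The difference did not pass in edgeR and did in DESeq2 (-2.30, adjusted p = 0.00357). Orm2 (ENSMUSG00000061540, chromosome 4, 63362449 to 63365878, plus strand) had 0, 7 and 54 reads in DKO, against 241, 213 and 96 in Control, and its CPM overlapped between the groups (log2 fold change 0.59, SE 1.09, adjusted p = 0.669). Its direction depended on DKO replicate 3, without which the log2 fold change was -1.33 (adjusted p = 0.296). In that library Orm2 took 12.4% of the Orm1 and Orm2 reads (exact 95% interval 9.49 to 15.9), against 0.657% to 1.30% in Control. Replicate 1 had no Orm2 read among 37, and replicate 2 had 1.90% (0.766 to 3.87). Orm1 and Orm2 are 89.9% identical over 621 coding bases, and 79.6% and 77.3% of their 50-base windows were unique.

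Lcn2, which captures bacterial iron carriers (ENSMUSG00000026822, chromosome 2, 32384633 to 32388252, minus strand), had 3, 7 and 62 reads in DKO, against 56, 40 and 54 in Control. Its level was 3.82, 12.04 and 67.1 CPM in DKO, against 4.27, 3.65 and 5.61 CPM in Control. DKO replicate 1 lay within the Control range and the others above it. Lcn2 rose by 2.63 on the log2 scale (SE 0.96; adjusted p = 0.0496), just inside the threshold. The call rested on DKO replicate 3, without which the log2 fold change was 1.03 (adjusted p = 0.221), and it ended without any 1 of the Control libraries, after background subtraction, with the filter of 1 CPM in 3 libraries and with limma-voom. The background expected from nearly silent genes was 3.995, 3.36 and 8.58 reads in DKO replicates 1, 2 and 3, so that Lcn2 was not detectable above background in replicate 1. Of the 13 neutrophil markers 4 were tested and 3 called higher (Mmp8, Elane and Csf3r). In DKO replicates 1, 2 and 3, Mmp8 had 3, 8 and 17 reads, Elane 6, 1 and 11, and Csf3r 10, 12 and 14. Background alone gave an expected 10.2, 6.18 and 23.2 reads of these genes over the DKO group. After background subtraction the Csf3r call ended (adjusted p = 0.0948 in edgeR), and Mmp8 and Elane were not tested. Scaled by gene reads alone, without TMM, the 13 summed to between 55.7 and 97.1 CPM in DKO, against 2.44 to 3.78 CPM in Control. Background in that sum was not estimated. Olfactory and vomeronasal receptor genes, scaled likewise, summed to between 895 and 1895 CPM in DKO, against 9.32 to 14.4 CPM in Control. On that scale Lcn2 was at 9.69, 13.3 and 41.6 CPM in DKO, against 3.53, 2.87 and 4.38 CPM in Control. The defining neutrophil genes S100a8 and S100a9 had 0, 0 and 1 and 0, 4 and 1 reads in DKO, against 10, 2 and 6 and 13, 4 and 9 in Control. The part of neutrophils in the Lcn2 result was not tested.

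Itih4, a relative of the heavy chains that stabilise hyaluronan in the extracellular matrix (ENSMUSG00000021922, chromosome 14, 30886476 to 30902353, plus strand), had 45, 283 and 356 reads in DKO, against 22033, 14444 and 13280 in Control. Its level was 310 ± 224 CPM in DKO and 1459 ± 195 CPM in Control (SD, n = 3 each). All DKO libraries were below all Control libraries, as for 36.4% of all genes tested. The log2 fold change of -2.24 (SE 1.202, adjusted p = 0.148) did not pass, but did without DKO replicate 1 (-1.88, adjusted p = 0.0396) and in DESeq2 (-2.46, adjusted p = 0.000252). The other genes of this family had 0 of 5 tested members called in edgeR. Among them Ambp, which encodes the light chain bikunin, stood at -3.08 on the log2 scale (SE 1.49; adjusted p = 0.116). For Itih3 it was -2.88 (SE 1.28, adjusted p = 0.0922).

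The order of levels per kb of coding transcript was clear in Control and was not resolved in DKO. In Control, Hpx (3766 ± 120 CPM per kb), Hp (2505 ± 133) and Orm1 (1914 ± 27.8) led without overlap. Itih4 (413 ± 55.2) and Saa4 (384 ± 82.0) overlapped each other, and Saa1 (151 ± 7.94) followed. Saa2 (20.8 ± 8.85), Orm2 (20.6 ± 6.68) and Saa3 (11.9 ± 2.25) overlapped in turn, and Lcn2 (4.93 ± 1.10) was lowest. In DKO the ranges of neighbouring genes overlapped down to Lcn2. There Saa1 had the next highest mean after Hpx, 599 ± 764 CPM per kb, and Saa2 was at rank 5 with 311 ± 375 CPM per kb (SD, n = 3). These ranks depend on the length used. Per kb of all annotated exons, Saa1 was at 31.3, 46.5 and 364 CPM in DKO replicates 1, 2 and 3. That was below Hp (62.6, 769 and 498) and Orm1 (60.8, 803 and 530) in each library.

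Set against other liver transcripts of the same library, Saa1 and Saa2 were high in every DKO library. Per 1000 Alb reads, Saa1 stood at 211, 4.15 and 173 in DKO replicates 1, 2 and 3, against 0.933, 1.09 and 1.13 in Control. Saa2 stood at 135, 2.35 and 86.8 in DKO, against 0.197, 0.136 and 0.0913 in Control. Hp and Hpx were also above Control in each DKO library, at 44.4 to 273 and 78.5 to 474 in DKO, against 34.6 to 41.2 and 58.7 to 68.9 in Control. Of all genes tested, 60.3% had more reads per Alb read in every DKO library than in every Control library, and 2.77% had fewer, so that a position above Control on this scale is common. Of the 10 members, 6 were above Control in this way (Saa1, Saa2, Hp, Hpx, Orm1 and Lcn2). The position of Lcn2 in DKO replicates 1 and 2 rested on 3 and 7 reads, not clearly above background.

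A measure that allows for background is the number of reads over those expected from the Control proportion, scaled on 159 abundant liver genes, plus the background of nearly silent genes. Saa1 had 12.3, 2.99 and 61.1 times its expected reads in DKO replicates 1, 2 and 3, where 4.97, 22.4 and 13.6 reads were expected. Saa2 had 10.01, 6.47 and 46.4 times its expected 3.90, 5.87 and 8.99 reads. Among 10223 nuclear protein-coding genes with at least 100 Control counts, the median of this ratio was 0.461, 0.926 and 0.982 in DKO replicates 1, 2 and 3. Saa1 was above 98.4%, 92.1% and almost all of these genes, with only Lars2 and Ppp1r12a above it in replicate 3, both named after their values were seen. Saa2 was above 97.6% and 98.6% of the genes in replicates 1 and 2, and came next after Saa1 in replicate 3. Of the 10223 genes, 6856, 9166 and 9697 had any read in DKO replicates 1, 2 and 3, and those without reads rank below.

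The abundant members were near the median gene in 1 DKO library and above most genes in the others, apart from Saa4. In DKO replicate 2, Hp, Hpx, Orm1, Itih4 and Saa4 had between 0.824 and 1.17 times their expected reads, close to the median gene. In replicates 1 and 3, Hp, Hpx, Orm1 and Itih4 had between 3.26 and 6.39 times their expected reads, above 86.1% to 91.1% of genes in replicate 1 and 89.7% to 97.0% in replicate 3, and Saa4 had no read and 0.766 times. Orm2 had 16.5 times its 3.26 expected reads in replicate 3, and Lcn2 7.01 times its 8.85. Background estimates for 1 gene are rough: Saa3 had 0 reads in DKO replicates 1, 2 and 3, where background alone gave an expected 4.73, 3.06 and 7.80.

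**Figure D4:**
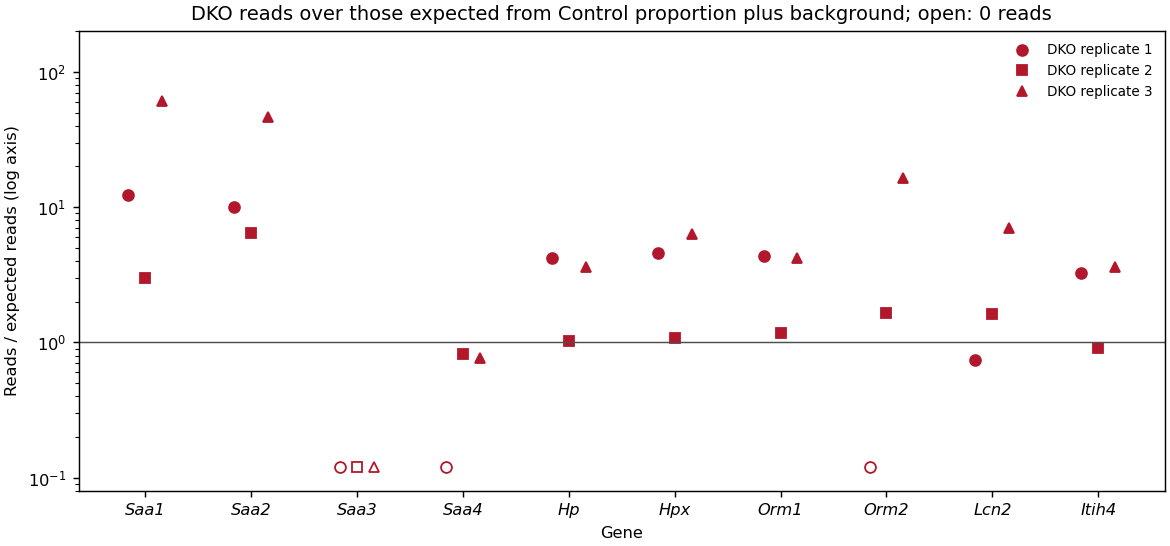
Reads of each gene in the 3 DKO libraries divided by the reads expected from the Control proportion plus background (log axis), 1 symbol per library; open symbols mark 0 reads and the line marks 1. Saa1 and Saa2 lie above 1 in all 3 libraries, at 2.99 to 61.1 and 6.47 to 46.4, and Hp, Hpx, Orm1, Itih4 and Saa4 lie near 1 in replicate 2.

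The scaling decided the direction of several members. Scaled on the abundant liver genes, which put the median gene at a log2 fold change of 4.76, against -0.08 with TMM, edgeR called 4 members higher and none lower, in a fit that called 63.0% of genes higher. Saa1 and Saa2 stood at 6.62 and 8.64 on the log2 scale there, with adjusted p of 0.0141 and 0.00509, above that shift. Lcn2 had 6.96 (adjusted p = 0.00361) and Orm2 4.46 (adjusted p = 0.0209), the last below the shift. Hp, Hpx, Orm1 and Itih4 turned to 1.68, 2.07, 1.83 and 1.92, with none passing, all below the shift. After subtraction of background reads Saa2 and Saa3 were still called, with adjusted p of 0.0427 and 0.0120, and Lcn2 was not (adjusted p = 0.227).

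**Figure D5:**
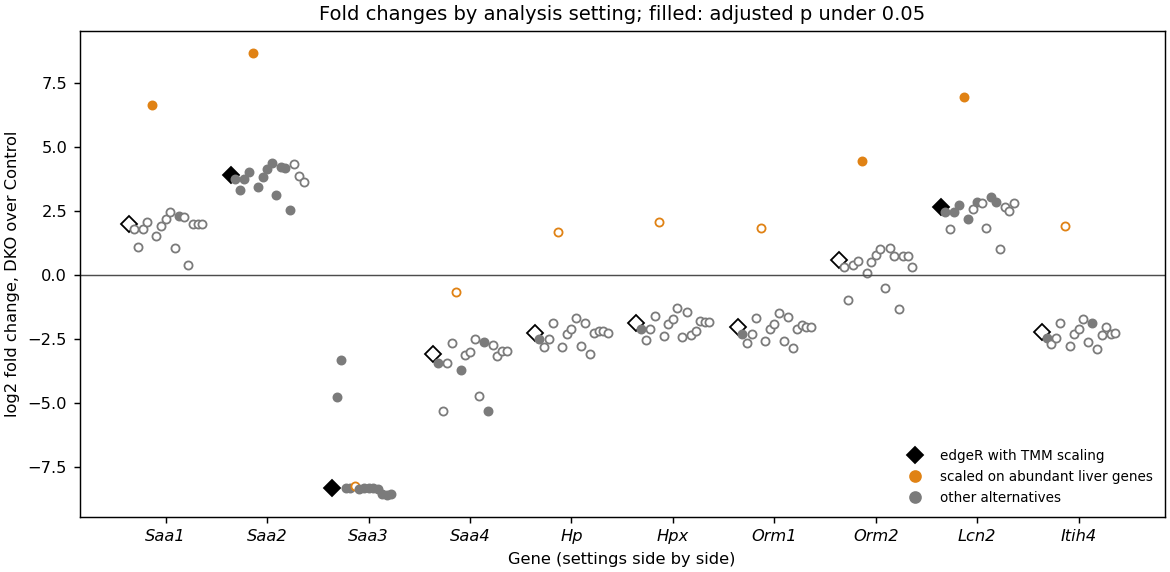
The log2 fold change of DKO over Control for each gene under edgeR with TMM scaling (black diamonds), with scaling on abundant liver genes (orange) and under the other alternatives (grey), side by side; filled symbols passed an adjusted p of 0.05. Saa2 stays above 0 throughout, at 2.51 to 8.64, the Saa3 value depends on the prior count because its DKO libraries hold 0 reads, and Hp, Hpx, Orm1 and Itih4 turn positive only with the orange scaling.

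Among other acute phase genes, 1 was called higher. Of 22 tested genes on a list of other positive acute phase proteins, 1 was called higher and none lower, with a median log2 fold change of -2.48. The called gene was A2m, an alpha-2-macroglobulin, with 3, 13 and 11 reads in DKO and 0, 6 and 1 in Control (log2 fold change 5.74, adjusted p = 0.00401), where background alone gave an expected 42.0 reads over the DKO group. The fibrinogen chains Fga, Fgb and Fgg had log2 fold changes of -3.09, -3.01 and -3.03, and the iron hormone gene Hamp one of -2.45, none of which passed (adjusted p = 0.122, 0.146, 0.128 and 0.182). Of 10 negative acute phase genes, which fall in inflammation, 0 were called, with a median of -2.97. Alb among them had 289, 16159 and 4804 reads in DKO, against 1216277, 948813 and 810882 in Control (log2 fold change -2.98, SE 1.84, adjusted p = 0.198). Ahsg, which encodes fetuin-A, had one of -3.20 (SE 1.74, adjusted p = 0.152).

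Of 25 tested cytokine receptors and factors of the response, 2 were called higher and 2 lower. Il6, the interleukin 6 gene, had 12, 3 and 16 reads in DKO and 0 in each Control library, which puts DKO at least 141-fold higher when 3 counts over the Control group serve as the floor (adjusted p = 0.000936), with 4.34 reads expected from background over the DKO group. Osmr, the oncostatin M receptor, had 39, 42 and 22 reads in DKO, against 64, 16 and 26 in Control (log2 fold change 3.99, SE 0.76, adjusted p = 0.00223), where background gave an expected 64.2 reads over DKO and the call ended once background was subtracted (adjusted p = 0.141). Tnfrsf1a, the main receptor for tumour necrosis factor, had 1, 1 and 14 reads in DKO, against 948, 707 and 602 in Control (log2 fold change -3.37, SE 0.86, adjusted p = 0.0108), and its call also ended after background subtraction (adjusted p = 0.0583). Stat3 and Socs3, which transmit and restrain the interleukin 6 signal, stood at log2 fold changes of -0.85 and -1.70, with adjusted p of 0.232 and 0.173. Myd88, an adaptor of interleukin 1 receptors, fell by 2.95 on the log2 scale (adjusted p = 0.0241). Stat3, Socs3, Myd88, the fibrinogen chains, Hamp, C1qb, S100a8 and S100a9 were named after their values were seen.

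Of 10 tested receptors and clearance genes for these plasma proteins, 2 were called higher and 1 lower. Lrp2, an endocytic receptor of the kidney, had 139, 82 and 82 reads in DKO, against 11, 1 and 3 in Control (log2 fold change 8.25, adjusted p = 0.000686), with 99.9 expected from background over DKO. Tlr4, a receptor for bacterial lipopolysaccharide, had 12, 8 and 5 reads in DKO, against 16, 3 and 10 in Control (log2 fold change 3.71, adjusted p = 0.00635), with 9.94 expected from background over DKO. Asgr2, part of the hepatocyte receptor that clears desialylated glycoproteins, fell by 2.89 on the log2 scale (SE 0.84; adjusted p = 0.0206). That call ended without Control replicate 1, 2 or 3 (adjusted p = 0.0628, 0.0596 and 0.0573) and after background subtraction (adjusted p = 0.111). Scaling on abundant liver genes turned Tnfrsf1a to 0.96 and Asgr2 to 1.76, and neither passed there. Among markers of other liver cells, edgeR called 1 of 9 sinusoidal endothelial genes higher and 2 lower, 2 of 8 stellate cell genes lower, 3 of 5 tested bile duct genes higher and 1 lower, and all 3 tested B and T cell genes higher, and their part in the results was not tested. Of these calls, Krt7 had 2, 1 and 13 reads in DKO and Ms4a1 had 2, 4 and 5, below the 45.4 and 20.2 reads expected from background over the DKO group.

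The genes with the most similar profile were found among 3126 nuclear protein-coding genes with at least 50 CPM in Control, by the root mean square distance of centred log2(CPM + 1) over the 6 libraries. For Saa1 the nearest was Eif5b at 0.52, followed by Klf13 (0.59) and Sptbn1 (0.59). For Hp it was Ubb at 0.07, followed by Slc20a2 (0.10) and Arf4 (0.12). For Lcn2 the nearest 2 were again Eif5b (0.60) and Klf13 (0.67). The genes of a library share its depth and composition, so these distances are a description only.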

How the data were processed

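The authors deposited, for each of 6 liver RNA-seq libraries, whole-number counts of reads per gene. The submitters' processing notes name STAR, HTSeq and the mm10 genome. The strand setting and read length were not given, so antisense or overlapping genes may share counts. The 5 rows that name no gene held 95.3% to 97.3% of reads in DKO and 65.1% to 66.7% in Control and were left out of all totals and fits. Gene names came from a name table that matched 42462 of 43346 IDs, and positions, lengths and transcripts from GENCODE M21. Promoters came from RefSeq (GRCm38.p6).

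The main test was edgeR 4.0.16 (quasi-likelihood, robust, TMM, filterByExpr by group) in R 4.3.3, with Benjamini-Hochberg adjustment over all 15561 genes tested, two-sided and without covariates. It was tested on data simulated from Control proportions, with no background reads and a spread near that of Control. The spread within groups (biological coefficient of variation) was 17.9% in Control and 64.0% over all 6 libraries. That check therefore does not cover the spread and composition of the DKO libraries. Alternatives were DESeq2 1.42.0, limma-voom 3.58.1, other scalings and filters, removal of mitochondrial genes, background subtraction, omission of each library in turn, and a block for replicate number. Background per kb came from 8600 nearly silent protein-coding genes (10 Control counts or fewer), binned by GC content into 10 classes. Abundant liver genes had over 30000 Control counts. Bounds for groups without reads used 3 counts per group. No library pair was identical or agreed within sampling noise. The members and lists were chosen with earlier results of these data known. Named list genes were up to 3 per list with the smallest adjusted p past the threshold, and otherwise the 2 most abundant. A genome sequence was not used here: windows, planned against the genome, were compared with annotated transcripts of all other genes. Levels per kb, planned on the length of all exons, were taken on the coding transcript. Proteins were not analysed here.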

Additional observations from a re-analysis of the deposited data

How the results depend on the processing

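The cause of each change below was not tested. Against 3 members called (2 higher and 1 lower), DESeq2 called 8 (2 higher and 6 lower), and leaving out 1 library gave between 0 and 6. No member was called without Control replicate 1, 2 or 3 in edgeR, where fewer libraries were fitted and Saa3 did not pass the filter, and 6 were called without DKO replicate 1. All other settings gave 2 to 4. Over all genes, 6863 were called, and 16127 with no filter beyond 1 count (11477 higher and 4650 lower), where more genes were tested. The 4871 higher genes became 9798 when scaled on abundant liver genes and 2301 after background subtraction. The 1992 lower genes became 4776 with DESeq2, 3577 with DESeq2's size factors, 84 on the abundant-gene scale, and between 567 and 4492 when 1 library was left out.

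Directions turned on the abundant-gene scale for Hp (1.68), Hpx (2.07), Orm1 (1.83), Itih4 (1.92), Tnfrsf1a (0.96), Asgr2 (1.76), Ambp (0.19) and Itih3 (0.75), and for Orm2 with limma-voom (-0.98), without DKO replicate 3 (-1.33, against 1.05 without DKO replicate 1) and with the replicate block (-0.52). Saa2 kept its direction in 16 of 16 alternatives, with log2 fold changes of 2.51 to 8.64 and adjusted p of 8.01e-05 to 0.0842, and its call in 13. Lcn2 kept its call in 8 of 16, with adjusted p of 0.00361 to 0.227. The replicate numbers did not pair the libraries: deviations of same-numbered DKO and Control libraries correlated at 0.12, 0.07 and -0.02 over genes. With the replicate number as a block, edgeR called 6322 genes and 2 members, Saa2 and Saa3 (adjusted p = 0.0391 and 0.0273), and not Lcn2 (0.205). With the hepatocyte marker list in place of Alb, each member's ratio moved by less than the spread between libraries. Depth limits Saa3, Orm2 and Lcn2 most, with 0 to 62 reads per DKO library.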
